A study of Mus musculus with 3 samples.

Results

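The sip53 libraries come from mouse embryonic fibroblasts transfected with siRNAs against Trp53, the gene of the p53 protein, and they are compared here with libraries of the same fibroblasts that received the non-targeting control siRNA, named nt. Members were chosen by column name: the 3 sip53 libraries and the 3 nt libraries, of 129 libraries in all, with 5 mock-transfected libraries, named Mock, as a second control. The study knocked down chromatin-associated factors during early reprogramming and measured RNA by CEL-Seq2, a method that tags the 3′ end of each RNA molecule with a barcode for the library and a random tag that removes PCR copies. All fibroblasts were wild-type cells of strain BL6 carrying lentiviral tet-STEMCCA (Oct4, Sox2, Klf4 and c-Myc) and rtTA, so sip53, nt and Mock share the reprogramming transgenes. Cells received 40 nM of pooled siRNAs and, from the next day, 2 µg/mL doxycycline with 3 µM chiron, 0.25 µM Alk5 inhibitor, 50 µg/mL ascorbic acid and LIF, and RNA was taken at day 6. A time course of the same cells, re-plated without transfection, covers days 0 to 6. Each of 3 sequenced pools held 1 sip53 library, 1 nt library and 1 or 2 usable Mock libraries, and the pool number served as the replicate number. Where a pool had 2 usable Mock columns, they bore the same name and were fitted as separate libraries. Whether they were separate transfections is not given. Per the study's methods cells were transfected in triplicate, so the replicates were separate transfections. Whether they came from separate fibroblast preparations is not given in the sources used here. The p-values measure the spread between libraries of a condition, estimated over all 127 libraries used, with the other siRNAs and the time course included.

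p53 is a transcription factor that is held at low levels by Mdm2 and Mdm4 and is stabilised by DNA damage and by oncogene activity. It then raises transcription of genes for cell cycle arrest, such as Cdkn1a, of genes for apoptosis, such as Bax, and of genes for DNA repair and metabolism. In reprogramming fibroblasts p53 is known as a barrier, and its loss is widely used to raise the yield of induced pluripotent colonies. During the same days fibroblasts lose matrix and cytoskeletal genes, a change called the mesenchymal-to-epithelial transition.

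The sequences of 2 of the pooled Trp53 siRNAs are shown because they fix where on the transcript the knockdown was aimed. Each is printed as its antisense strand, 5′ to 3′, with the seed, bases 2 to 8 of that strand, in capitals.
Trp53 siRNA 1 antisense: aCUCGGGAuacaaauuucctt
Trp53 siRNA 2 antisense: aAAAAACUccucaacaucctg
The 19 paired bases of siRNA 1 matched the plus strand of chr11:69588661-69588679 (GRCm38, the mm10 build), in coding sequence of exon 6 of Trp53. Those of siRNA 2 matched chr11:69587410-69587428 in coding sequence of exon 4. Each matched 5 of the 6 annotated Trp53 transcripts, and siRNA 2 also matched the pseudogene Trp53-ps exactly. The 2 sites lie 1010 and 1452 bases from the 3′ end of the transcript, whereas CEL-Seq2 counts the 3′ end.

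The libraries used held between 29656 and 235292 counts, with a median of 73279, and 127 of the 129 passed the minimum of 10000 counts. In sip53, nt and Mock between 6267 and 10313 genes had a count. Levels are given in CPM, counts-per-million of the genes tested, scaled between libraries by TMM. A level is a share of a library's counts and is not divided by gene length, because the method counts 1 tag per molecule. A log2 difference of 1 is a 2-fold difference. Differences were called at an adjusted p of 0.05 by edgeR's quasi-likelihood test (Benjamini-Hochberg over the 3013 genes tested).

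Trp53 itself was close to the limit of detection in sip53, nt and Mock. The sip53 libraries held 1, 2 and 2 Trp53 counts, the nt libraries 3, 3 and 2, and the Mock libraries 0, 3, 1, 0 and 1. The counts of sip53 lay within those of Mock and overlapped with those of nt, and in CPM sip53 spanned 21 to 57, nt 16.3 to 50 and Mock 0 to 103. Found in sip53 were 5 counts where the nt libraries predicted 5.12, a ratio of 0.976 with an exact Poisson 95% interval of 0.317 to 2.28, which covers the counting error of the sip53 counts only. Against Mock the ratio was 1.37 (0.446 to 3.2), and against all 103 other transfected libraries, which held 206 Trp53 counts, it was 1.08 (0.352 to 2.53). The edgeR log2 difference was -0.02 (SE 0.934, 95% interval -1.88 to 1.84, unadjusted p = 0.981). A lowering of Trp53 mRNA was thus not detected at day 6. With 0 to 3 counts per library and an interval that reaches down to -1.88, the counts cannot tell a lowering within that interval from no change. In the untransfected time course Trp53 averaged 85.5 ± 40.7 CPM at day 0 and 29.8 ± 21.3 CPM at day 6 (SD, n = 3 libraries each).

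Of the 3013 genes, 59 (1.96%) were called between sip53 and nt. Higher in sip53 were 26 genes (0.863%) and lower were 33 (1.1%). The higher genes included type I collagen, Sparc, Dcn, the imprinted pair Igf2 and H19, Sfrp1, Inhbb, Gas1 and Cdkn1a. The lower genes included the glycolytic enzyme gene Pgk1, Bnip3, Zmat2, Ptgr1, 3 antioxidant genes and Npm1. Of the 26 higher genes 10, and of the 33 lower genes 20, were predicted genes or genes with a near-identical copy, whose reads the counting could split. Without the replicate block 18 genes were called, with a single sip53 or nt library left out 30 (without nt of pool 3) to 46 (without nt of pool 1), and the split turned towards higher genes in several alternatives: 32 higher and 21 lower with RLE size factors, 35 higher and 25 lower with DESeq2 and 12 higher and 6 lower without the block.

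**Figure D1:**
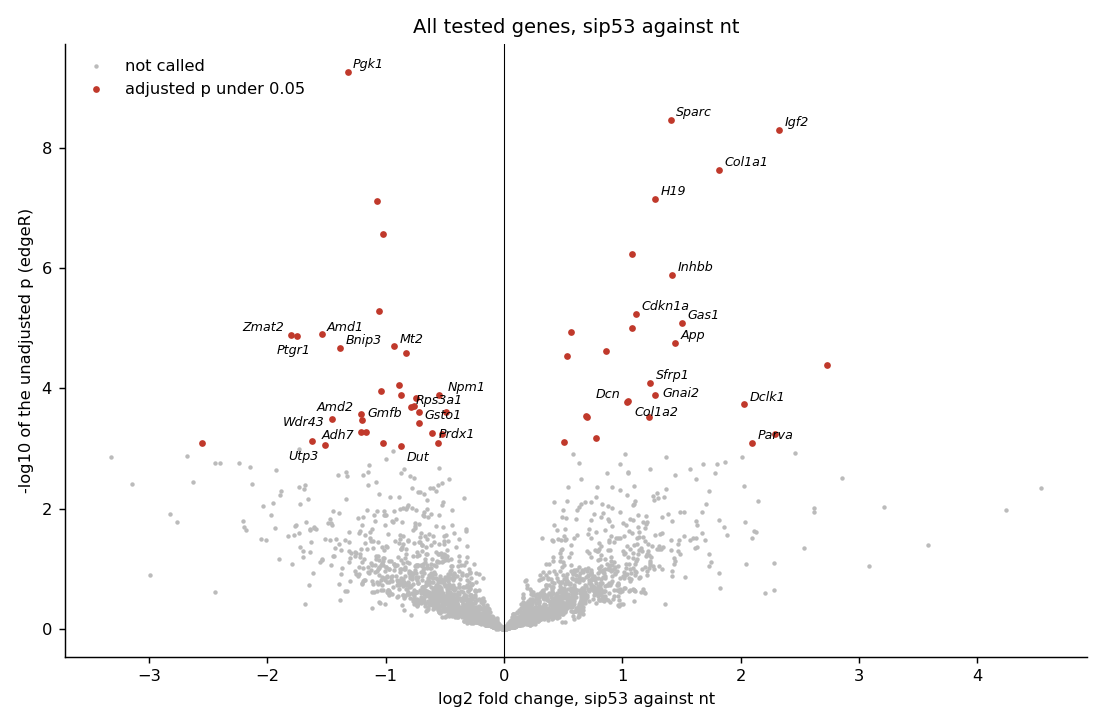
Log2 fold change of sip53 against nt (x axis) and minus log10 of the unadjusted edgeR p (y axis) for the 3013 genes tested. Red points mark the 59 genes with an adjusted p under 0.05, 26 to the right and 33 to the left of 0, with Pgk1, Sparc and Igf2 at the top.

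Cdkn1a, which encodes the cell cycle inhibitor p21 and is the standard readout of p53 activity, was higher in sip53 than in nt. Its levels were 903, 884 and 697 CPM in sip53 and 383, 404 and 343 CPM in nt. All 3 sip53 libraries lay above all nt libraries, and the log2 difference was 1.12 (SE 0.241, edgeR adjusted p = 0.00157), a 2.17-fold higher level. In Mock the levels were 800, 515, 749, 770 and 254 CPM, so that sip53 and Mock overlapped, and the difference of 0.51 from Mock was not called (95% interval 0.07 to 0.95, edgeR adjusted p = 0.435). Against the mean of the 32 other siRNAs the log2 difference was 0.43 (SE 0.167, edgeR adjusted p = 0.303), while the sip53 mean was among the 3 highest of the 33 siRNA means. Mock against nt gave 0.61, which did not pass the test (edgeR adjusted p = 0.189), and 1 Mock library lay below all nt libraries. In the untransfected time course Cdkn1a stayed between 643 ± 143 CPM (day 5) and 1190 ± 104 CPM (day 3). At day 6 it stood at 939 ± 96.3 CPM, where the sip53 mean was 828 ± 114 CPM and the nt mean 377 ± 30.8 CPM (SD, n = 3 each). Of the siRNA means only that of siPou5f1 (283 CPM) lay below nt.

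The other known p53 targets gave no called gene. Of 61 listed targets 22 had enough counts to be tested, 1 was called (Cdkn1a), beside 1.96% of all genes tested. By edgeR 5 were higher and 1 lower at an unadjusted p under 0.05, beside 13.7% of all genes in either direction. Of the 22, 16 lay above 0 and 6 below, beside 47.1% above and 52.9% below over all genes, and the median log2 difference was 0.31 beside -0.04. Against Mock none of the 22 was called by edgeR (0.332% of all genes were) and the median was 0.12, and against the other siRNAs none was called (0.73% of all genes were) and the median was 0.20. By role, the arrest targets had 1 of 6 called (median 0.51), the apoptosis targets 0 of 6 (-0.13), the repair and metabolism targets 0 of 6 (0.35) and the secreted and matrix targets 0 of 4 (0.79). Zmat3, a p53-induced RNA-binding protein, had levels of 231, 342 and 195 CPM in sip53 and 83.3, 150 and 106 CPM in nt. These did not overlap, but the difference of 1.10 (SE 0.413) did not pass the test (edgeR adjusted p = 0.164). Ccng1, a cyclin G gene and p53 target, lay the other way, with 1030, 856 and 850 CPM in sip53 and 1330, 1480 and 1230 CPM in nt, a difference of -0.56 (SE 0.191, edgeR adjusted p = 0.111). Bax, the apoptotic pore protein, gave -0.54 (SE 0.279, adjusted p = 0.387), and Phlda3, an inhibitor of Akt, gave 0.88 (SE 0.358, adjusted p = 0.211), both by edgeR. The summed level of the 61 targets was 43.5 to 47.1 per 10000 counts in sip53, 37.7 to 42.2 in nt and 34.7 to 45.7 in Mock. Without Cdkn1a the sums were 37.7 to 39.6, 34.6 to 38.8 and 30.8 to 39.5, and all 3 groups overlapped.

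Regulators of p53 were not called either. Of 13 tested members none was called by edgeR, beside 1.96% of all genes, and 1 had an unadjusted p under 0.05, beside 13.7%. Of the 13, 6 lay above 0 and 7 below, beside 47.1% and 52.9%, with a median of -0.10 beside -0.04. Mdm2, the ubiquitin ligase that degrades p53 and is itself a target of p53, had levels of 105, 285 and 167 CPM in sip53 and 66.6, 165 and 188 CPM in nt, with overlapping groups. Its log2 difference was 0.23 (95% interval -0.58 to 1.03, edgeR adjusted p = 0.890), and leaving out the second sip53 library gave -0.12. Mdm4, the related inhibitor, gave 0.88 (SE 0.536, adjusted p = 0.500), and Chek1, a kinase of the DNA damage checkpoint, gave -0.92 (SE 0.543, adjusted p = 0.480), again by edgeR.

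**Figure D2:**
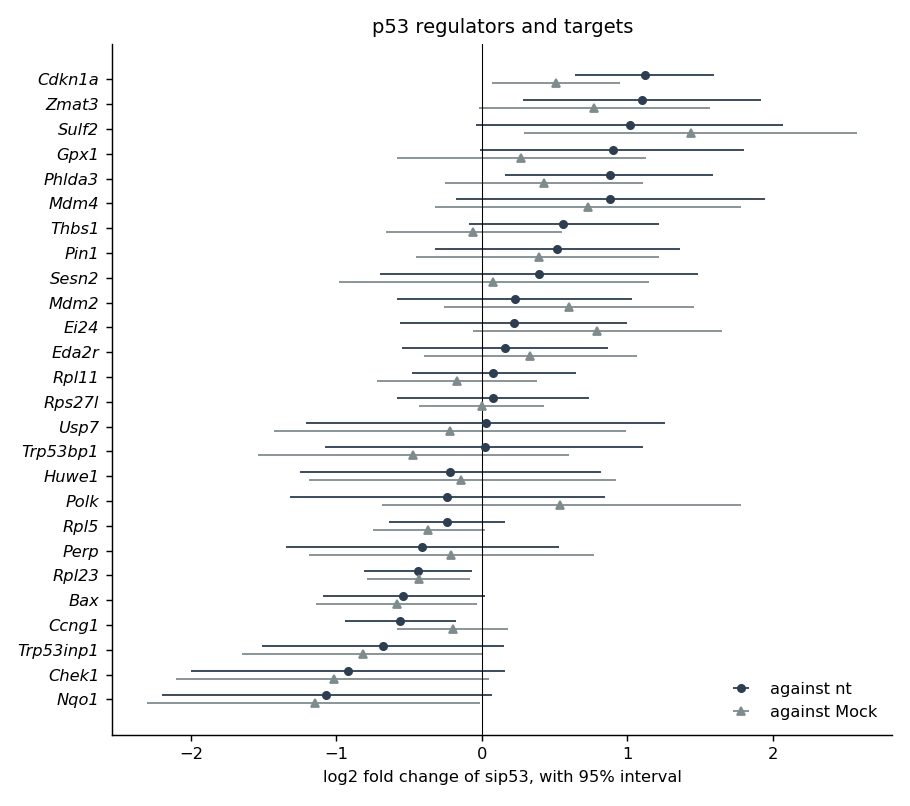
Log2 fold change of sip53 against nt (circles) and against Mock (triangles), with 95% intervals from the edgeR fit, for the p53 regulators and targets that had at least 30 counts over the sip53 and nt libraries or were called. Cdkn1a at the top is the gene called against nt, and its triangle against Mock lies at 0.51.

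Matrix genes of fibroblasts were among the higher genes. Of 43 tested mesenchymal genes 4 rose against nt, beside 0.863% of all genes tested, and none fell. Above 0 lay 37 of the 43, beside 47.1% of all genes, and the median log2 difference was 0.82, beside -0.04. The 4 were Col1a1 and Col1a2, the chains of type I collagen, Dcn, the collagen-binding proteoglycan decorin, and Sparc, a secreted collagen-binding glycoprotein. Of 16 alternative analyses with nt as control, Col1a1 and Sparc kept their call in all 16, Col1a2 in 7 and Dcn in 8. Against Mock 2 of the 43 were called higher (Col1a1 and Sparc; median 0.39), beside 0.133% of all genes with a median of -0.03. Against the other siRNAs 3 were called higher (Col1a1, Dcn and Sparc; median 0.45), beside 0.597% with a median of 0.0. Bulk RNA cannot tell a larger number of fibroblast-like cells from more RNA per cell.

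Col1a1 stood at 714, 570 and 502 CPM in sip53, at 167, 209 and 139 CPM in nt and at 284, 343, 288, 49.6 and 164 CPM in Mock. The sip53 libraries lay above every library of both controls. The log2 difference was 1.81 (SE 0.314, edgeR adjusted p = 1.75e-05) from nt, a 3.51-fold higher level, 1.46 (SE 0.302, adjusted p = 0.0025) from Mock and 1.27 (SE 0.211, adjusted p = 3.85e-06) from the other siRNAs. The sip53 mean of 595 ± 108 CPM (SD, n = 3) was the second highest of the 33 siRNA means. Sparc had 1370, 856 and 1020 CPM in sip53, 400, 479 and 359 CPM in nt and 358 to 519 CPM in Mock, again with no overlap. Its log2 difference was 1.41 (SE 0.230) from nt, 1.36 (SE 0.225) from Mock and 0.82 (SE 0.156) from the other siRNAs, with edgeR adjusted p of 5.13e-06, 1.24e-05 and 0.000127. Its sip53 mean of 1080 CPM was the fourth of the 33, below siWdr5 (1700 CPM) and siCdk1 (1230 CPM) and level with siBard1 (1080 CPM), siBrca1 and siEp300 (1070 CPM each). Col1a2 had 609, 656 and 669 CPM in sip53 and 350, 284 and 310 CPM in nt, above the 323 to 519 CPM of Mock too. It was called against nt (1.04, SE 0.272, edgeR adjusted p = 0.0153) but not against Mock (0.75, SE 0.263, adjusted p = 0.234).

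Dcn had 903, 542 and 571 CPM in sip53 and 416, 239 and 335 CPM in nt, while Mock, at 149 to 634 CPM, overlapped with sip53. It was called against nt (1.04, SE 0.273, edgeR adjusted p = 0.0153) and against the other siRNAs (1.47, SE 0.202, adjusted p = 5.99e-09), and its sip53 mean was the highest of the 33. The other 39 tested mesenchymal genes were not called against nt. Among them Thy1, a surface glycoprotein of fibroblasts, gave 0.83 (SE 0.310, edgeR adjusted p = 0.162), Timp3, an inhibitor of matrix proteases, gave 1.57 (SE 0.508, adjusted p = 0.0802), and Vim, the mesenchymal intermediate filament, gave 0.19 (SE 0.220, adjusted p = 0.786). The summed level of 12 fibroblast markers was 31.3 to 41.8 per 10000 counts in sip53, 18.6 to 24.9 in nt and 20.8 to 34.2 in Mock, second of the 33 siRNAs. These markers include the called Col1a1, Col1a2 and Dcn, and the other 9 summed to 16.6 to 23.8, 11.9 to 17.4 and 12.8 to 22.4, with overlapping groups and sip53 ranked 7 of 33. The 55 mesenchymal genes with a row summed to 105 to 136 in sip53, 79.7 to 94.3 in nt and 80.4 to 103 in Mock, and sip53 ranked 7 of 33. Without the 4 called genes they summed to 81.8 to 107, 69.6 to 84.5 and 69.4 to 87.4, with overlapping groups and sip53 ranked 10 of 33. The sum of the 12 fibroblast markers had been 65.7 to 80.7 at day 0 of the time course and 30.5 to 40.1 at day 6. None of these markers was at 0 throughout. Markers of other cell types were near 0: the sums in sip53 were 0.117 to 0.728 for 12 macrophage and blood markers, of which Ptprc, Cd68, Adgre1, C1qa and Cd52 had no count in sip53, nt or Mock, 0.117 to 0.728 for 10 endothelial markers, with Pecam1 and Cdh5 among the 5 at 0, and 0.468 to 0.509 for 10 skeletal muscle markers, with Myod1 and Myog among the 7 at 0. Neural markers summed to 1.36 to 1.52 in sip53 and 1.5 to 1.89 in nt.

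Igf2 and H19, neighbours on chromosome 7 that share imprinting control, were both higher in sip53. Igf2 encodes a fetal growth factor (chr7:142650766-142666816, minus strand) and H19 a long noncoding RNA (chr7:142575529-142578143, minus strand), and the annotated genes end 72.6 kb apart. Igf2 had 420, 485 and 404 CPM in sip53 against 99.9, 89.7 and 73.5 CPM in nt and 155, 68.7, 317, 298 and 119 CPM in Mock. No library of either control reached sip53. The log2 difference from nt was 2.33 (SE 0.383, edgeR adjusted p = 5.13e-06), a 5.01-fold higher level, and that from the other siRNAs was 1.42 (SE 0.243, adjusted p = 7.97e-06). That from Mock was 1.23 (SE 0.333) and missed the threshold (edgeR adjusted p = 0.0678). Igf2 overlaps another annotated gene, Gm49394, so its reads may be divided between the entries.

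H19 was the more abundant of the pair, with 2080, 2910 and 1130 CPM in sip53 against 849, 1090 and 539 CPM in nt. Within each pool sip53 exceeded nt, and the pool with the lowest sip53 level also had the lowest nt level. The log2 difference was 1.28 (SE 0.230, edgeR adjusted p = 3.84e-05) from nt and 1.03 (SE 0.157, adjusted p = 3.1e-07) from the other siRNAs. From Mock, at 568 to 1920 CPM, it was 0.73 (SE 0.209, edgeR adjusted p = 0.0888). The sip53 mean of H19 was the highest of the 33 siRNAs and that of Igf2 the second. Neither gene was called between day 0 and day 6 of the time course (Igf2 -0.42, adjusted p = 0.326, and H19 -0.22, adjusted p = 0.577, by edgeR).

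Sfrp1, Inhbb and Gas1 were higher as well. Sfrp1, a secreted antagonist of Wnt ligands, had 651, 314 and 460 CPM in sip53, 183, 209 and 212 CPM in nt and 77.4 to 309 CPM in Mock, with no overlap. The log2 differences were 1.23 from nt, 1.47 from Mock and 1.13 from the other siRNAs (SE 0.308, 0.321 and 0.221), with edgeR adjusted p of 0.0098, 0.00511 and 0.000211. Inhbb, the beta B subunit of activins and inhibins, had 672, 713 and 418 CPM in sip53 and 300, 209 and 163 CPM in nt. It was called against nt (1.42, SE 0.286, edgeR adjusted p = 0.000438) and the other siRNAs (0.87, SE 0.197, adjusted p = 0.00408), and Mock gave 0.91 (SE 0.267, adjusted p = 0.0914). Gas1, a membrane-anchored protein induced in growth-arrested fibroblasts, had 441, 371 and 446 CPM in sip53 and 183, 120 and 147 CPM in nt, a log2 difference of 1.5 (SE 0.330, edgeR adjusted p = 0.00204). Its sip53 mean of 419 ± 42.1 CPM shared the top of the 33 siRNAs with siBard1 (419 ± 59.5 CPM; SD, n = 3 each). Mock reached 375 CPM in 1 library and the difference from Mock was not called (0.88, SE 0.306, edgeR adjusted p = 0.234).

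App, Gnai2, Dclk1 and Parva were also higher than nt. App, the amyloid precursor protein, had 462, 314 and 362 CPM in sip53 and 200, 135 and 106 CPM in nt (log2 1.44, SE 0.329, edgeR adjusted p = 0.00292). Gnai2, an inhibitory G protein subunit, differed by 1.27 (SE 0.327, adjusted p = 0.0129), Dclk1, a microtubule-associated kinase, by 2.03 (SE 0.535, adjusted p = 0.0163) and Parva, an actin-binding protein of focal adhesions, by 2.10 (SE 0.618, adjusted p = 0.0428), all by edgeR. Parva and Dclk1 were scarce in nt, at 29.9 to 33.3 and 29.9 to 50 CPM. None of these 4 was called against Mock or against the other siRNAs. Of 16 alternative analyses with nt as control Parva was called in 1 of the 14 that tested it.

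**Figure D3:**
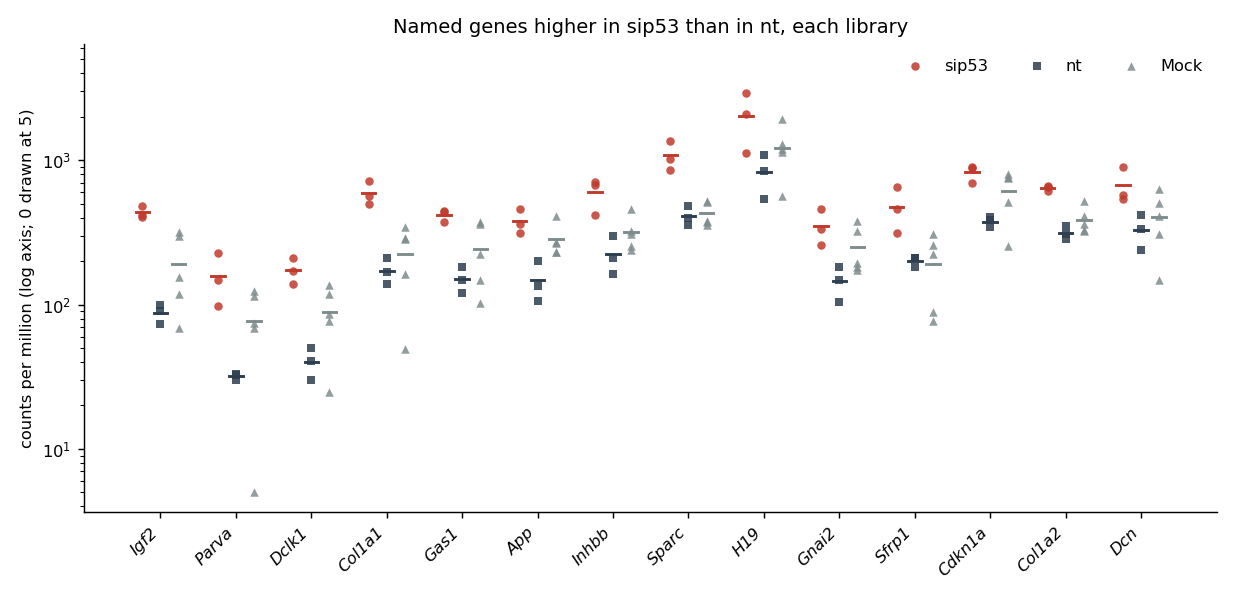
CPM (log axis; a library at 0 is drawn at 5) of the 14 genes that were higher in sip53 than in nt and were chosen by the naming rule, predicted genes left out, with 1 point per library (3 sip53, 3 nt, 5 Mock) and a bar at each group's mean. In these 14 every sip53 point lies above every nt point of the same gene, while Mock points reach into sip53 for genes such as Cdkn1a and Dcn.

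Among the lower genes Pgk1 had the smallest p-value. Pgk1, Bnip3 and Prdx1 have near-identical copies elsewhere in the genome, so their single values are uncertain. Pgk1, phosphoglycerate kinase of glycolysis, had 420, 1110 and 850 CPM in sip53 and 1570, 2270 and 2030 CPM in nt. The groups did not overlap, and the log2 difference was -1.32 (SE 0.204, edgeR adjusted p = 1.65e-06). Mock, at 951 to 1340 CPM, overlapped with sip53 (-0.62, SE 0.209, adjusted p = 0.225) and was itself called lower than nt (-0.70, edgeR adjusted p = 0.00771). Bnip3, a mitochondrial protein induced by low oxygen that drives mitophagy, had 189, 171 and 251 CPM in sip53 and 616, 688 and 457 CPM in nt (-1.38, SE 0.319, edgeR adjusted p = 0.00318), and Mock spanned 223 to 692 CPM. The other members of these lists were not called: Pgk1 was 1 of 12 glycolysis genes (median -0.30) and Bnip3 was 1 of 6 low-oxygen genes (median -0.21) and 1 of 8 genes of the apoptosis machinery (median 0.13), beside 1.1% of all genes called lower and an overall median of -0.04.

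Antioxidant genes gave 3 called lower of 29 tested, beside 1.1% of all genes tested, with a list median of -0.15 beside -0.04. Against Mock 1 of the 29 was called (Prdx1), beside 0.199% of all genes called lower, with a median of 0.02 beside -0.03. Prdx1, a peroxide-reducing enzyme, had 1600, 941 and 1690 CPM in sip53, 1900, 1810 and 2870 CPM in nt and 1790 to 2670 CPM in Mock. It was lower against nt (-0.61, SE 0.175, edgeR adjusted p = 0.0343) and against Mock (-0.66, SE 0.168, adjusted p = 0.0332). The call against nt was kept in 7 of 16 alternatives and was lost with RLE, without the block, without sip53 of pool 2 or 3 and without nt of pool 1 or 3. Mt2, a metal-binding metallothionein, had 588, 656 and 683 CPM in sip53 and 699, 1110 and 1810 CPM in nt (-0.93, SE 0.213, edgeR adjusted p = 0.00317). The call was lost without the nt library of pool 3, the highest, and also without the sip53 library of pool 3, and Mock gave -0.35 (edgeR adjusted p = 0.683). Gsto1, a glutathione transferase, had overlapping levels of 693, 1170 and 599 CPM in sip53 and 1700, 1380 and 939 CPM in nt, although within each pool sip53 was lower (-0.72, SE 0.200, edgeR adjusted p = 0.0251). The call was kept in 6 of 16 alternatives and was lost without sip53 or nt of pool 1 or 3. It was also lower against the other siRNAs (-0.58, SE 0.159, edgeR adjusted p = 0.041).

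Zmat2, a zinc finger protein of the spliceosome, was the lower gene with the largest fold among those of clear identity. Its levels were 126, 28.5 and 97.5 CPM in sip53, 400, 344 and 253 CPM in nt and 224 to 378 CPM in Mock. The groups did not overlap, and the log2 difference was -1.80 from nt (SE 0.403, edgeR adjusted p = 0.00238) and -1.80 from Mock (SE 0.404, adjusted p = 0.0052). The sip53 mean was the lowest of the 33 siRNAs. Ptgr1, a prostaglandin reductase, had 147, 85.6 and 111 CPM in sip53, 300, 329 and 515 CPM in nt and 223 to 418 CPM in Mock. It was lower than nt (-1.75, SE 0.394, edgeR adjusted p = 0.00238), and against Mock it gave -1.40 (SE 0.413, adjusted p = 0.0914). Adh7, an alcohol dehydrogenase acting on retinol, gave -1.21 (SE 0.343, edgeR adjusted p = 0.0343) with overlapping groups, and Gmfb, an actin regulator, gave -1.20 (SE 0.331, adjusted p = 0.0233). The call was kept in 4 of 16 alternatives for Adh7, and was lost with RLE, with DESeq2 and without the block. For Gmfb it was kept in 6 of 16.

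Npm1, nucleophosmin of the nucleolus and a partner of p53 regulators, was abundant and lower by a small step. It had 4260, 3760 and 4710 CPM in sip53, 5730, 6000 and 6980 CPM in nt and 4960 to 7120 CPM in Mock, with no overlap. The log2 difference was -0.55 (SE 0.141, edgeR adjusted p = 0.0129) from nt and -0.54 (SE 0.132, adjusted p = 0.0169) from Mock. Its near-identical copies Gm5611 and Gm14681 were called lower too, so reads of the 3 entries are uncertain, and their sum was 7240 to 9240 CPM in sip53, 14200 to 14700 in nt and 9890 to 14600 in Mock. Of 22 tested ribosome biogenesis genes Npm1 was the 1 called, beside 1.1% of all genes called lower. Below 0 lay 18 of the 22, beside 52.9% of all genes, with a median of -0.35 against nt and -0.03 against Mock, beside -0.04 and -0.03. Wdr43 and Utp3, processing factors of the small ribosomal subunit not in that list, were lower than nt (-1.46, SE 0.399, adjusted p = 0.0229, and -1.51, SE 0.449, adjusted p = 0.0463, by edgeR). Mock was called lower than nt for both, at -1.56 and -1.42, and sip53 and Mock overlapped: for Wdr43 sip53 spanned 84 to 143 CPM, nt 254 to 416 CPM and Mock 74.5 to 144 CPM. Against Mock the Wdr43 difference was 0.11, so its direction turned.

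Amd1 and Dut were lower too. Amd1, the decarboxylase that supplies polyamine synthesis, had 63, 171 and 153 CPM in sip53 and 283, 494 and 376 CPM in nt (-1.54, SE 0.346, edgeR adjusted p = 0.00238). It has a near-identical copy, Amd2 (-1.21, SE 0.327, adjusted p = 0.0209), and Mock was called lower than nt for Amd1 (-1.09, edgeR adjusted p = 0.0227). Dut, which clears dUTP in S phase, gave -0.87 (SE 0.259, edgeR adjusted p = 0.0467) and was the 1 gene called of 18 tested S phase genes, beside 1.1% of all genes called lower, and their median was -0.04 as over all genes. Dut and Utp3 were called in none of the alternative analyses that tested them (16 and 15). Of 33 mitosis genes none was called by edgeR, 28 lay below 0, beside 52.9% of all genes, and 2 had an unadjusted p under 0.05, beside 13.7%. Their median was -0.34 against nt and 0.08 against Mock, beside -0.04 and -0.03. Their sum was 46.8 to 51.8 per 10000 counts in sip53, 51.9 to 72.1 in nt and 47.1 to 52.9 in Mock.

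**Figure D4:**
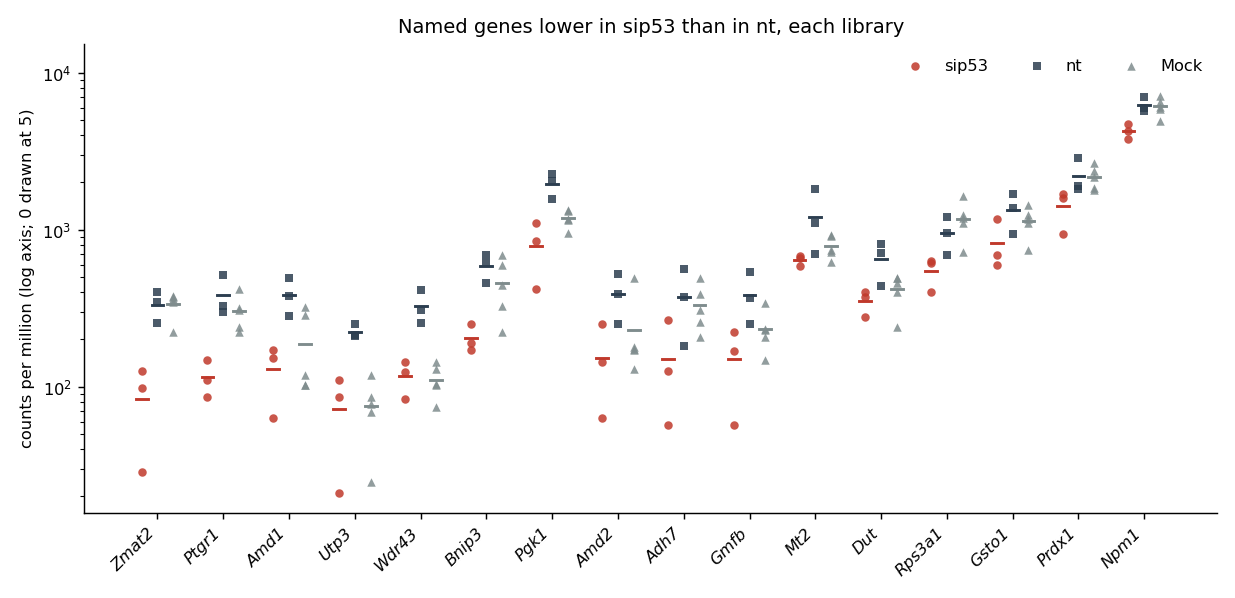
CPM (log axis) of the named genes that were lower in sip53 than in nt, with 1 point per library (3 sip53, 3 nt, 5 Mock) and a bar at each group's mean. For Zmat2, Ptgr1, Npm1, Prdx1 and Rps3a1 every sip53 point lies below every nt and Mock point, whereas for Wdr43, Utp3 and Amd1 the Mock points lie beside sip53.

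Several called genes have copies that share their 3′ sequence, and their single values are uncertain. Genes annotated on the opposite strand overlap Cdkn1a, Igf2, H19, Gas1, App, Dclk1, Bnip3, Mt2, Adh7 and Wdr43, and without strand in the counting their reads could not be told apart. Rps3a1, a ribosomal protein gene with the copy Rps3a2, had 630, 399 and 613 CPM in sip53, 949, 688 and 1210 CPM in nt and 721 to 1630 CPM in Mock. It was lower against nt (-0.79, SE 0.209), Mock (-1.19, SE 0.199) and the other siRNAs (-0.71, SE 0.168), with edgeR adjusted p of 0.0172, 1.24e-05 and 0.00757. The sum with Rps3a2 was 770 to 945 CPM in sip53, 1090 to 2170 in nt and 951 to 2400 in Mock. The predicted gene Gm7206, a processed pseudogene of the ribosomal protein gene Rpl9, had the largest named fold of all, with 8, 11 and 13 counts in sip53 and 0, 2 and 6 in nt (log2 2.73, SE 0.654, edgeR adjusted p = 0.0052). It was called against Mock (2.81) and the other siRNAs (3.26) too. Rpl9 and its copies Rpl9-ps6, Rpl9-ps7 and Gm7206 together stood at 441 to 656 CPM in sip53, 135 to 200 CPM in nt and 99.3 to 172 CPM in Mock. This family was looked up after its values were seen, and of 95 libraries of the other siRNAs 1 reached the lowest sip53 sum. Gapdh, the glycolytic enzyme, was not called (-0.86, adjusted p = 0.221 by edgeR), while its copies Gm12033 and Gm10327 were called lower (-2.56 and -1.63, adjusted p = 0.0428 each). Neither copy's call was stable: Gm12033 was called in 1 of 14 alternative analyses and Gm10327 in 0 of 16.

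The controls were not alike: 47 genes (1.56%) were called between Mock and nt, of which 31 had the higher level in Mock. Of the 26 genes higher in sip53 than in nt, 6 were also called higher in Mock than in nt, and of the 33 lower genes 7 were also called lower. The 6 were the predicted genes Gm21738, Gm10717, Gm10800 and Gm10801, and mt-Co3 with its copy Gm28437. For the mitochondrial gene mt-Co3 sip53 had 20300, 16800 and 15900 CPM, nt 14000, 11000 and 11600 CPM and Mock 14600 to 22500 CPM, so that sip53 lay within Mock. The 7 lower genes were Wdr43, Utp3, Amd1, Pgk1, Cct8, Bclaf1 and Gm14044.

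Against Mock alone 10 genes (0.332%) were called, 4 higher and 6 lower, and 259 had an unadjusted p under 0.05, beside 412 against nt. The 4 higher were Col1a1, Sparc, Sfrp1 and Gm7206, and the 6 lower were Zmat2, Rps3a1, Prdx1, Npm1, Gm7600 and Gm5586. All but the last pair were also called against nt. By edgeR the lower calls fell to 0 without pool 3 (188 genes in either direction at an unadjusted p under 0.05), 1 without pool 1, 3 without pool 2 and 1 without the replicate block, while the higher calls numbered 3 or 4 in these fits. Of the 26 genes called higher against nt, 21 lay above Mock in the fit, with a median of 0.68 where nt gave 1.23, and 8 lay above Mock in every library, as did 2.56% of all genes tested. Of the 33 lower genes, 32 lay below Mock, with a median of -0.46 where nt gave -1.02, and 8 lay below Mock in every library, as did 2.32% of all genes. Both comparisons share the sip53 libraries, and the genes were chosen by the first.

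With the mean of nt and Mock as reference 31 genes (1.03%) were called, 18 higher and 13 lower. They include 14 of the 26 higher genes and 13 of the 33 lower genes of the nt comparison. Cdkn1a (0.81, SE 0.202, edgeR adjusted p = 0.0122), Col1a2 (0.90, SE 0.233, adjusted p = 0.0211), Dcn (0.88, SE 0.232, adjusted p = 0.0242), Igf2 (1.78, SE 0.308, adjusted p = 2.34e-05) and H19 (1.00, SE 0.190, adjusted p = 0.000162) were among the higher genes. Pgk1 (-0.97, SE 0.187, edgeR adjusted p = 0.000248) and Bnip3 (-1.17, SE 0.297, adjusted p = 0.0165) were among the lower ones.

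Set against the mean of the 32 other siRNAs, sip53 differed in 22 genes (0.73%), 18 higher and 4 lower. Among the higher genes were Col1a1, Sparc, Dcn, Sfrp1, Inhbb, Gas1, Igf2, the noncoding H19, and Crabp1, which binds retinoic acid in the cytoplasm (0.93, SE 0.143, edgeR adjusted p = 3.32e-07). The siWdr5 mean was above that of sip53 for Col1a1 (1050 against 595 CPM), Sparc (1700 against 1080 CPM) and Sfrp1 (1450 against 475 CPM). It was also above for Inhbb (731 against 601 CPM) and Igf2 (570 against 436 CPM). For Dcn, Gas1 and H19 the sip53 mean was above that of siWdr5. Crabp1 had 1720, 2020 and 1030 CPM in sip53 and 1130, 613 and 768 CPM in nt, where it was also called (0.86, SE 0.200, edgeR adjusted p = 0.00343). Cxcl12, a stromal chemokine, was called against the other siRNAs (2.40, SE 0.568, edgeR adjusted p = 0.00783) but not against nt (1.86, SE 0.798, adjusted p = 0.243). Named after its values were seen, it had 147, 28.5 and 83.6 CPM in sip53. Of the 26 genes higher than nt, 15 had a sip53 mean among the 3 highest of the 33 siRNAs (7.43% of all genes tested) and 5 were the highest (2.19%). Of the 33 lower genes 16 were among the 3 lowest (9.59%) and 10 were the lowest (3.15%). These genes were chosen by the same sip53 libraries, so the shares over all genes are no reference for chance here.

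**Figure D5:**
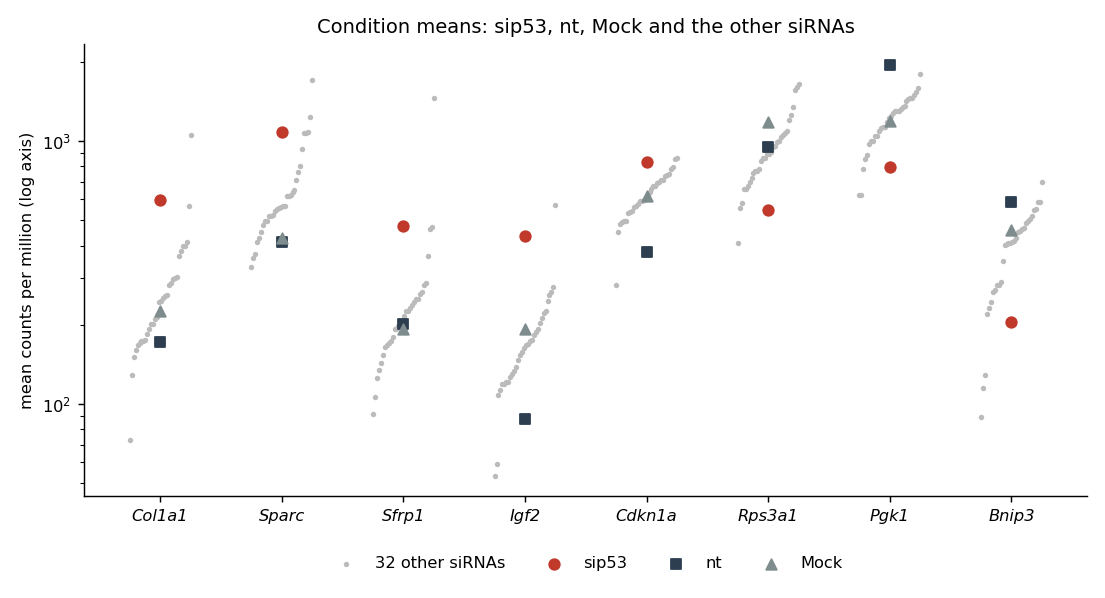
Mean CPM (log axis) of 8 named genes in sip53 (circle), nt (square), Mock (triangle) and each of the 32 other siRNAs (grey points, sorted within the gene). The sip53 mean is second of 33 for Col1a1, Sfrp1 and Igf2, and for Pgk1 and Bnip3 nt lies near the top of the grey points.

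The other positive controls of the study were siRNAs against Myc and against Pou5f1 (Oct4), both factors of the reprogramming cassette. Against siMyc 23 genes (0.763%) were called, 14 higher and 9 lower in sip53. Col1a1 (2.93, SE 0.421, edgeR adjusted p = 4.18e-08), Igf2 (2.61, SE 0.460, adjusted p = 2.91e-05), Dcn (1.61, SE 0.325, adjusted p = 0.000721) and Col1a2 (1.41, SE 0.320, adjusted p = 0.00523) were higher in sip53 than in siMyc. Zmat2 (-1.74), Ptgr1 (-1.71), Bnip3 (-1.26), Mt2 (-0.87), Rps3a1 (-0.84) and Gsto1 (-0.81) were lower. By edgeR the 9 lower calls fell to 0 without pool 2, without pool 3 or without the low-count filter (281, 204 and 817 genes in either direction had an unadjusted p under 0.05). Against siPou5f1 265 genes (8.8%) were called, 114 higher and 151 lower. Of the 43 mesenchymal genes 17 were higher in sip53 than in siPou5f1 and none was lower, with a median of 1.27, and of the 10 tested fibroblast markers 9 were higher, beside 3.78% of all genes called higher and a median of -0.03. Cdkn1a was higher by 1.51. The call count against siPou5f1 fell to 16 when the fit held only the libraries compared.

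The time course gives the levels of the same genes in untransfected reprogramming cells, in libraries outside every sip53 comparison. Of the genes tested, 668 (22.2%) were called between day 0 and day 6, 321 rising (10.7%) and 347 falling (11.5%). Of the 26 genes higher in sip53 than in nt, 11 fell by day 6 (42.3%) and 3 rose (11.5%). Of the 33 lower genes, 17 rose (51.5%) and none fell. Genes with many counts are called more often: of the 624 tested genes with at least 100 counts in sip53 and nt, 28.7% rose and 11.9% fell. Without predicted genes and copies, 7 of 16 higher genes fell and 6 of 13 lower genes rose. The summed level of all genes that fell by day 6 was 1130 to 1290 per 10000 counts in sip53, 943 to 1150 in nt and 971 to 1240 in Mock, so that these groups overlapped.

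Among the falling genes Sparc went from 3260 ± 177 CPM at day 0 to 1040 ± 72.6 CPM at day 6 (SD, n = 3 libraries each; log2 -1.66, edgeR adjusted p = 6.04e-16). Its mean was 1080 ± 260 CPM in sip53 and 413 ± 60.6 CPM in nt. Col1a1 went from 1330 ± 559 to 458 ± 85.8 CPM (-1.58, edgeR adjusted p = 1.37e-09). Dcn, Inhbb and Sfrp1 rose by day 6 (3.18, 3.63 and 2.93, with edgeR adjusted p of 4.41e-07, 3.86e-12 and 3.68e-14). Of the lower genes, Mt2 rose from 51.8 ± 53 to 973 ± 155 CPM (4.29, edgeR adjusted p = 4.11e-26), Npm1 from 792 ± 118 to 2030 ± 232 CPM (1.35, adjusted p = 2.9e-11) and Adh7 by 3.37 (adjusted p = 3.67e-09). Pgk1, Bnip3, Zmat2 and Amd1 were not called between the 2 days.

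Promoters of the called genes were searched for the p53 half-site consensus in the window from 250 bases before to 50 bases after the start site, as RefSeq gives it for GRCm38.p6. The consensus reads the same on both strands. Of 11 higher genes with a promoter in that set 5 held a match, of 19 lower genes 0 did, and the shares were 9.55% of 27025 promoters and 8.28% of the 1921 tested genes with a promoter. A p53 response element is made of a pair of half-sites, and a match describes these letters and does not by itself show whether p53 binds. Cdkn1a held 2 matches with 12 bases between them, and the other 4 genes held 1 each. In the second Cdkn1a window the bases directly after the match differ from the consensus at their first base only. The search took exact matches and did not count them. The matches are shown as 30-base windows on the gene's strand, 5′ to 3′, with the match in capitals.
Cdkn1a, chr17:29090896-29090925, plus strand: tcctgggtggGGACTAGCTTtctggccttc
Cdkn1a, chr17:29090918-29090947, plus strand: tggccttcagGAACATGTCTtgacatgttc
Crabp1, chr9:54764590-54764619, plus strand: caccaggggaGAGCAAGTTCcaagttgcat
Gas1, chr13:60177513-60177542, minus strand: aggagaaagcGGGCAAGCCTggagcgcgcg
Igf2, chr7:142657629-142657658, minus strand: gaatggtccaAGGCTAGCTCttgggggtgc
Sparc, chr11:55420280-55420309, minus strand: gagagtgctcAGGCAAGTTCactcgctggc

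Epithelial and pluripotency genes could hardly be read at this depth. Of 30 epithelial genes 1 was tested and of 43 pluripotency genes 2 were, and none was called. The pluripotency sum was 3.16 to 3.98 per 10000 counts in sip53, 3.84 to 5.86 in nt and 3.37 to 5.03 in Mock, and Zfp42, Dppa4, Lin28a and Lin28b had no count in these libraries. Proteasome genes (0 of 23 called, median -0.30), genes of the ATF4 response and cystine supply (0 of 18, median -0.07), immediate early genes (0 of 8, median 0.43), DNA repair genes (0 of 6, median -0.47) and interferon genes (0 of 4, median 0.06) gave no call by edgeR, with 4, 2, 1, 0 and 0 members at an unadjusted p under 0.05, beside 13.7% of all genes tested.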

How the data were processed

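Bulk RNA of reprogramming fibroblasts was measured by CEL-Seq2 in 3 sequenced pools, each holding every barcoded library of 1 replicate number. Per the methods, the authors mapped reads to mm10 with Bowtie2, removed PCR copies by UMI with the CEL-Seq pipeline and matched transcripts to a GENCODE annotation; the deposited count table holds these counts for 50507 gene symbols. The deposited log2 table holds log2 CPM values from which the authors had regressed out batch effects, and it served only for the limma alternative. Whether counting used strand is not given in the sources used here. Conditions came from column names.

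Here the 127 libraries with at least 10000 counts were fitted together (edgeR 4.0.16, R 4.3.3: TMM, filterByExpr, quasi-likelihood, condition plus replicate, 83 residual degrees of freedom), which gave 3013 genes tested. The replicate number marks a shared pool; the deviations of sip53 and nt libraries of the same pool correlated by 0.05, 0.06 and 0.21, over 2659 genes, and the pool was fitted as a block. The methods name a batch correction by regression without saying what the batch was. Replicates differed by more than sampling noise in every pair of sip53, nt or Mock libraries (chi-square per degree of freedom 1.35 to 2.64). Trp53 missed the filter and was fitted apart with the same scaling. Copies were genes whose last 300 bases match at 95% identity or more. Named genes were Trp53, p53 genes called or with at least 30 counts, the 12 largest called changes in each direction with at least 50 CPM and 1 sign in all replicates, genes called against nt, Mock and the other siRNAs, and called members of the lists, with other called genes named beside them. Members, lists and this rule were chosen with earlier results of these data known. Alternatives were RLE, no filter, DESeq2 1.42.0, limma 3.58.1, no block, fewer libraries and other controls. The test was tried on simulated counts.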

Additional observations from a re-analysis of the deposited data

Results flagged for a closer look

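Each of the 59 genes chosen by the naming rule was examined in the 5 Mock libraries for a library that stood apart from the other 4 by more than Dixon's 95% critical value (0.71 for 5 libraries), and 5 genes had one. Chance alone gives about 1 in 20. The first Mock column of pool 1 had 181 CPM of Mdm2 where the others had 89.6 to 115 CPM. The second Mock column of pool 1 had 103 CPM of Trp53, which is 3 counts, where the others had 0 to 28.8 CPM, and 412 CPM of App where the others had 231 to 273 CPM. The second Mock column of pool 2 had 496 CPM of Amd2, above 129 to 179 CPM. The second Mock column of pool 3 had 224 CPM of Zmat2, below 348 to 378 CPM and above all 3 sip53 libraries.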

How the results depend on the processing

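The 59 genes called between sip53 and nt became 53 with RLE and 60 with DESeq2, of which 47 and 46 were among the 59, 69 with only the libraries compared, 37 with no low-count filter, 18 with limma on the deposited log2 values, 18 without the replicate block and 27 with nt and Mock as 1 control. Leaving out libraries gave 19 (without pool 2) to 46 (without the nt library of pool 1). The share of higher genes was 44.1% with TMM, 60.4% with RLE, 58.3% with DESeq2, 65.2% with only the libraries compared, 72.2% with limma, 66.7% without the block, 52.6% to 56.0% when a pool was left out and 32.4% without the filter. Against Mock, 10 became 22 with DESeq2, 25 with only the libraries compared and 5 without the block, and 3 to 7 when a pool was left out. Against nt and Mock, 31 became 20 with limma, 8 without the block and 16 to 20 when a pool was left out. Against the other siRNAs, 22 became 62 without the filter, 14 without the block and 15 to 19 when a pool was left out. Against siMyc, 23 became 9 without the block, 54 with only the libraries compared and 6 to 16 when a pool was left out. Against siPou5f1, 265 became 93 without the filter, 97 with limma, 118 without the block, 16 with only the libraries compared and 102 to 208 when a pool was left out. The cause was not tested, except that fits without the filter tested more genes and those with only the libraries compared fewer.

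Over the 33 named called genes and their alternatives, 300 of 550 values kept direction and call, 1 changed sign (Wdr43 with Mock in place of nt, 0.11) and the others lost the call. Col1a1, Sparc, Igf2, Inhbb and Pgk1 kept their call in all 16 alternatives that use nt, while with Mock in place of nt Igf2, Inhbb and Pgk1 lost it. Of the 16, Cdkn1a lost it without the filter, H19 without the block and Zmat2 without pool 2. Dut, Gm10327 and Utp3 kept it in none. With a single library left out, Gas1 also kept its call, and so did Gm7206 in the 4 such fits that tested it. The call was lost without sip53 of pool 1 for Amd1 and Sfrp1, of pool 2 for Bnip3 and of pool 3 for App, and without either library of pool 3 for Ptgr1 and Mt2. It was lost without sip53 of pool 1, nt of pool 2 or nt of pool 3 for Dcn, Gnai2 and Dclk1, and without sip53 or nt of pool 2 or 3 for Col1a2 and Npm1. For Prdx1 and Rps3a1 it was lost without sip53 of pool 2 or 3 or nt of pool 1 or 3, for Gsto1 without sip53 or nt of pool 1 or 3, for Adh7 without sip53 of pool 1 or 2 or nt of pool 3, for Gmfb without sip53 of pool 1 or 2 or nt of pool 2, and for Amd2 without those or nt of pool 3. For Parva any of the 6 libraries ended it, for Wdr43 any but nt of pool 2 and for Gm12033 any but nt of pool 3. Trp53, at -0.02 from nt, turned to 0.05 with RLE, 0.10 with only the libraries compared, 0.22 with nt and Mock as 1 control and 0.12 against all other transfected libraries, and spanned -0.34 to 0.49 with libraries left out. Of the p53 genes not called, 34 of 369 values changed sign. With Mock in place of nt Thbs1 became -0.06, Trp53bp1 -0.47, Usp7 -0.22, Rpl11 -0.17, Polk 0.54 and Rps27l -0.0. With nt and Mock as 1 control Trp53bp1 became -0.24, Usp7 -0.1, Rpl11 -0.05 and Polk 0.08. Without the filter Trp53bp1 became -0.12, Usp7 -0.11, Rpl11 -0.06 and Rps27l -0.07, and with limma Trp53bp1 -0.08, Usp7 -0.2, Polk 0.13 and Rps27l -0.15. With libraries left out, the ranges of those that turned were -0.12 to 0.67 for Mdm2, -0.46 to 0.40 for Trp53bp1, -0.60 to 0.43 for Usp7, -0.11 to 0.41 for Rpl11, -0.64 to 0.16 for Huwe1, -0.15 to 0.66 for Eda2r, -0.81 to 0.11 for Polk and -0.37 to 0.30 for Rps27l. Depth limits what could be tested: 22 of the 61 p53 targets passed the filter, and Trp53 did not.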
